A study of Mus musculus with 12 samples.

Results

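Lymph node cells of PKD2-null mice were compared with those of wild-type mice after 4 h with antigenic peptide, on 6 of the 12 arrays of the study: 3 arrays of PKD2-null_stimulated cells and 3 of Wild-type_stimulated cells, each array from a mouse of its own. The groups were taken from the sample titles. All mice were of the P14-TCR strain, which carries a transgenic T cell receptor that recognises the peptide gp33-41, and they differed in genotype, wild type or PKD2 null; the allele and the ages are not given in the sources used here. Cells of disaggregated lymph nodes were cultured for 4 h with gp33-41 at 62.5 ng/ml. Cells of the same 6 mice were cultured for 4 h without peptide and supplied the other 6 arrays. The suspensions were whole lymph node cells, not sorted T cells, so every value is that of a mixture in which fewer cells of a type and less RNA per cell cannot be told apart.

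PKD2, encoded by Prkd2, is a serine/threonine kinase that is recruited by diacylglycerol and activated by protein kinase C when the T cell receptor is engaged. It is the main protein kinase D of mature lymphocytes, and it has been studied in T cells for its part in cytokine production after antigen. The comparison addresses which transcripts of the antigen response, and of the cells around it, are at another level when this kinase is missing.

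RNA was hybridised to Affymetrix arrays, and the deposited values are log2 signals of 45101 probe sets, of which 45037 remained after 64 control probe sets were set aside. The medians of the 12 arrays lay between 4.661 and 4.72. The signal difference between 3′ and 5′ actin probe sets, a measure of RNA quality, was 0.181 to 0.238 on the stimulated wild-type arrays and 0.179 to 0.221 on the stimulated null arrays. Where several probe sets measured a gene, the one brightest on average was used, which gave 18193 genes, and a level or difference below is on the log2 scale unless a fold is named. Differences are null minus wild type with a standard error (SE) from limma, fitted on all 12 arrays, and are called at a Benjamini-Hochberg adjusted p under 0.05 over all 45037 probe sets. No detection calls were used here, so a level well below the array median may be background, and a fold against it, as for Il3, F3, Oasl2 and Ccnb1ip1 below, may be a lower bound. The array number of 3 mice a group limits the precision, and the spread measured is that between mice.

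In the stimulated cultures B cell transcripts were higher in the null suspensions and salivary gland transcripts were lower. Of 20 measured B cell markers 19 were above wild type and 4 were called. Their mean level was 8.09, 8.23 and 8.10 in stimulated wild-type replicates 1 to 3 and 8.60, 9.19 and 8.53 in null replicates 1 to 3, so the groups did not overlap, and null replicate 2 was the highest. The difference of 0.635 had an exact two-sided permutation p of 0.1, the smallest that 3 against 3 mice allow. Without peptide the markers stood apart in the same way, at 8.73, 8.79 and 8.72 in wild type and 9.17, 9.80 and 9.09 in null cells. Individual levels show the extent: Ms4a1, which encodes CD20, was at 9.93, 10.23 and 10.10 in wild type and 10.42, 11.26 and 10.45 in null cells, whereas Pax5, a defining B cell factor, lay near the array median on all 6 arrays, at 5.17, 5.11 and 5.06 and 5.05, 5.21 and 5.20. Neither CD8 coreceptor gene was called: Cd8a was at 10.22, 10.35 and 9.88 in wild type and 10.51, 10.29 and 10.56 in null cells (difference 0.30, SE 0.17, adjusted p = 0.438).

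Salivary glands lie against the lymph nodes of the neck. Of 28 salivary gland epithelial genes 26 were below wild type and 1 was called, with a median of -0.82; without wild-type replicate 1, 9 were called and the median was -1.23. Their mean level was 5.90, 7.25 and 7.44 in stimulated wild-type replicates 1 to 3 and 5.48, 5.81 and 4.93 in the null replicates (difference -1.46, exact two-sided permutation p = 0.1, again the smallest possible). The 2 genes above wild type were Amy1 (1.03) and Smr3a (1.07), and both overlapped between the groups. In the mean level with peptide wild-type replicate 1 lay close to the null arrays. Without peptide the mean level was 5.86, 5.42 and 7.36 in wild type and 5.49, 5.64 and 4.84 in null cells. These groups overlapped (difference -0.89, exact two-sided permutation p = 0.3). Wild-type replicate 2 had a salivary gland level of 5.42 without peptide and 7.25 with it. The 3 lowest genes of the whole comparison were of this kind or close to it: Scgb2b27, a secretoglobin, was at 6.74, 12.43 and 11.36 in wild type and 3.55, 4.18 and 3.31 in null cells. Dcpp3, a demilune cell and parotid protein whose probe set may bind its close relatives, was at 11.82, 14.61 and 14.35 and 6.79, 9.21 and 6.32, and A2ml1, an alpha-2-macroglobulin-like protease inhibitor, at 6.69, 11.39 and 10.56 and 3.81, 4.06 and 3.73. Their differences of -6.50, -6.15 and -5.68 passed the test (adjusted p = 0.0428, 0.0113 and 0.0299), although wild-type replicate 1 was far below the other wild-type arrays in each. Without peptide the same genes differed by -5.12, -5.87 and -4.79 (adjusted p = 0.25, 0.0589 and 0.165). The Y-linked Eif2s3y was high in wild-type replicate 2 (9.40) and null replicate 3 (9.64) and low on the other 4 stimulated arrays, so each group held 1 such mouse.

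**Figure D1:**
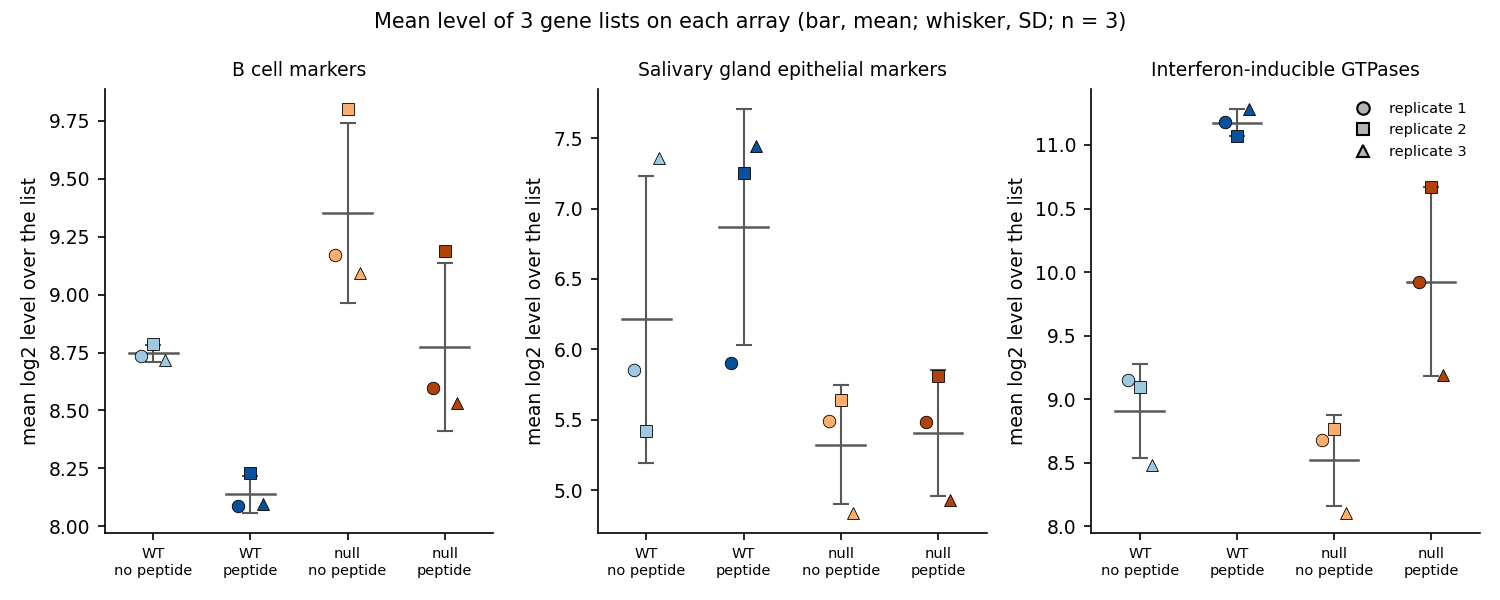
Mean log2 level of the measured members of 3 gene lists on each of the 12 arrays, by genotype and culture (WT, wild type), with the group mean as a bar, the SD as whiskers and the replicate number as the symbol. The 3 null arrays with peptide lay above the 3 wild-type arrays for B cell markers and below them for both other lists, and null replicate 2 was the null array nearest to wild type for the interferon-inducible GTPases.

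With peptide, 360 probe sets were higher in null than in wild-type cells (0.799% of those tested) and 171 were lower (0.38%), together 531 (1.18%). An unadjusted p under 0.05 in limma, in either direction, was found for 7034 (15.6%). Quantile normalization changed the balance to 262 higher and 199 lower. By gene, 199 were higher (1.09%) and 99 lower (0.544%). The 3 null and 3 wild-type values were apart in every one of these 298 genes, as they were in 4322 (23.8%) of all genes. Sizes were moderate: 33 of the higher genes and 28 of the lower genes differed by at least 1, with medians of 0.654 and -0.675 beside -0.0266 over all genes. Since that last median is below 0, a majority of all genes lay below wild type with peptide. Counts of list members on one side of 0, given below, stand against that background.

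The counts moved when marker levels were added as covariates and when single arrays were left out. With the B cell marker level of each array as a covariate, 1321 probe sets were higher and 586 lower, and with the salivary marker level 42 and 15; with both, a setting chosen after the data were seen, 58 and 41. Leaving out null replicate 1 left 53 higher and 22 lower, and leaving out null replicate 3 left 132 and 40. Without wild-type replicate 2 the counts were 109 and 72, and without wild-type replicate 3 they were 121 and 38. Without null replicate 2, the array richest in B cell transcripts, 420 probe sets were higher and 218 lower. All 531 calls kept their sign in each of these fits. For the called genes, whose groups were apart, leaving out an array could not have changed the sign, so only the covariate fits could. Of 57 called genes followed by name through the alternatives, 16 lost their call with the B cell covariate and 40 with the salivary covariate. Most differences stayed near their size: 36 of the 40 were within 1.5 times of it and 4 were smaller, with a median of 86.8% of the difference without the covariate. For the 16 the median was 71.3%, with 9 within 1.5 times and 7 smaller. Ccl3, for example, was at -1.64 in place of -1.80 with the salivary level, and Bcl6 at 0.98 in place of 0.95. The 17 genes still called with the salivary level were Prkd2, Tnfrsf21, Xaf1, F3, Rab27a and 5830468F06Rik, lower, and Ccnb1ip1, Tnfrsf19, Pgap1, Cnr2, Hhex, Marchf1, Cd79b, Fcrla, Cxcr4, Ddit4 and E330020D12Rik, higher. Each covariate is the mean of a marker list, so its fit is no test for the list's own members. The part of B cell and salivary gland RNA in any single difference was not tested beyond these fits.

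The genes that differed were mostly genes that respond to the peptide. The average response, the change with peptide averaged over both genotypes, has weights orthogonal to those of the genotype difference. Of the 199 genes higher in null cells, 170 (85.4%) fell with peptide and 13 rose, and of the 99 lower genes 72 (72.7%) rose and 9 fell. Over all genes 3099 (17%) rose and 4335 (23.8%) fell. In the absence of peptide 188 of the 199 higher genes and 68 of the 99 lower genes were on the same side (94.5% and 68.7%, beside 52.1% of all genes above and 47.9% below wild type there; both cultures came from the same mice), with median differences of 0.26 and -0.0925, and 1 of the higher and 4 of the lower genes were called there too: Plekho1 was higher, and Prkd2, Slc1a5, Pkp4 and Tubb2a were lower, genes chosen here because they alone were called in both cultures.

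**Figure D2:**
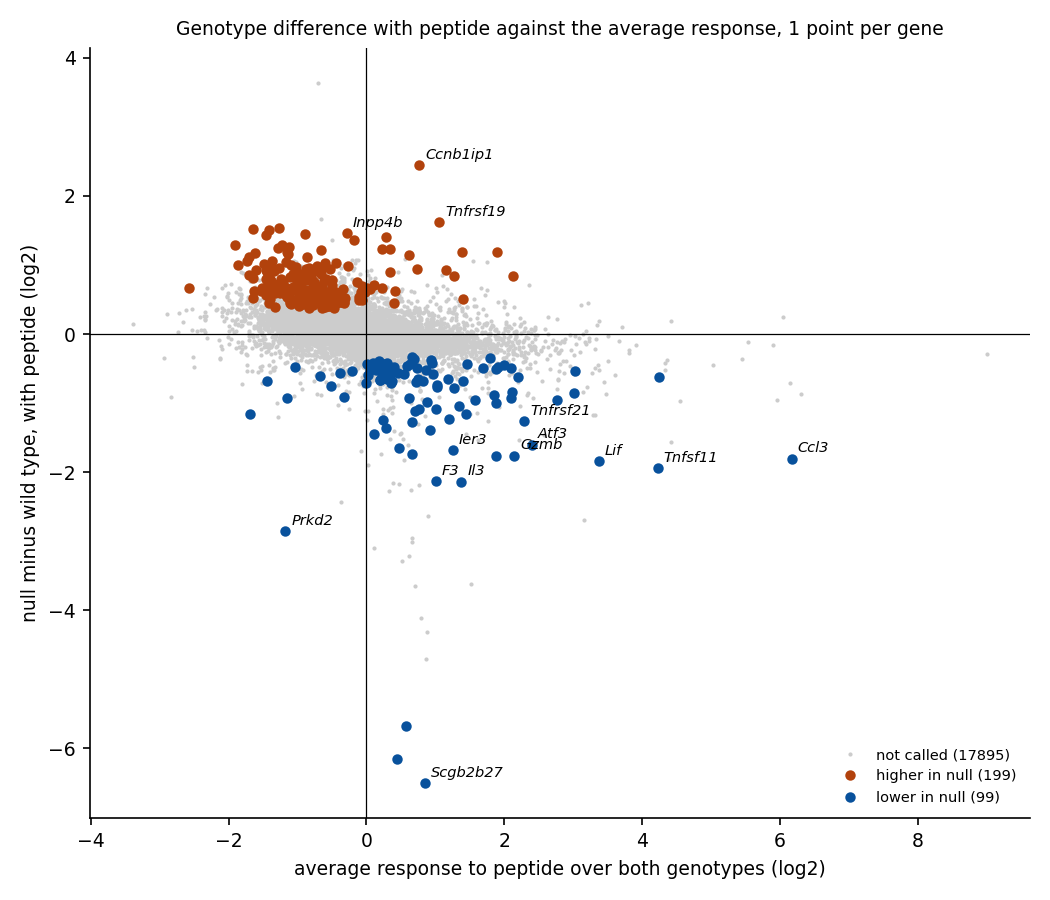
Null minus wild type with peptide (log2, vertical axis) against the average response to peptide over both genotypes (log2, horizontal axis), 1 point per gene. The 99 genes lower in null cells lie mostly right of 0, among genes that rose with peptide, and the 199 higher genes mostly left of 0; the lowest called points are Scgb2b27, Dcpp3 and A2ml1, followed by Prkd2.

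Prkd2 itself was the first check of the labels. Its level was 8.16, 8.30 and 8.52 in stimulated wild-type replicates 1 to 3 and 5.60, 5.47 and 5.36 in the null replicates, a 7.22-fold lower level (difference -2.85, SE 0.15, adjusted p = 2.48e-06). Of 4 further Prkd2 probe sets 3 were lower in null cells and 2 of these were called, with differences of -3.94 and -3.88. Without peptide the difference was -4.17 (adjusted p = 2.68e-08), and the change with peptide was -1.84 in wild-type and -0.52 in null cells. No call was made for the other kinases of the family: Prkd3 was at 9.08, 8.83 and 9.25 in wild type and 9.58, 9.30 and 9.68 in null cells (difference 0.47, SE 0.14, adjusted p = 0.144), and Prkd1 was below the array median at 3.83, 4.02 and 3.86 and 3.55, 3.87 and 3.77.

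Slc1a5, which encodes a transporter of glutamine and other neutral amino acids, is one of the 20 genes on either side of Prkd2 in RefSeq gene order. It was at 9.05, 8.56 and 9.30 in wild type and 7.28, 7.09 and 7.23 in null cells (3.42-fold lower, SE of the log2 difference 0.21, adjusted p = 0.00366), and it was lower by a like amount without peptide (-1.56, adjusted p = 0.0266). A second, dimmer Slc1a5 probe set was not lower (0.42). Of the 40 genes around Prkd2 2 were called, Slc1a5 and Dhx34, and 24 of 1420 genes of the chromosome. The amino acid transporter list held no other call among its 13 measured genes.

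Cytokines, the secreted messengers of activated T cells, gave calls in few genes. Of 15 measured cytokine genes 2 were lower, Il3 and Lif, none was higher, and the median difference was 0.0132. Il3, a growth factor for myeloid progenitors, was at 4.93, 4.69 and 7.08 in wild type and 3.31, 3.39 and 3.57 in null cells (4.41-fold lower, adjusted p = 0.0426). Wild-type replicate 3 was well above the other wild-type arrays, and no null array reached any wild-type array. The change of Il3 with peptide was 2.37 in wild-type and 0.37 in null cells. Lif, a cytokine of the interleukin 6 family, was at 9.29, 8.45 and 9.32 and 6.66, 8.36 and 6.52 (3.57-fold lower, adjusted p = 0.0458). Null replicate 2 came within 0.1 of the lowest wild-type array, and the other null arrays were far below. Il3 was not called once the B cell level was a covariate (-1.96, adjusted p = 0.113), nor without null replicate 2 (-2.12, adjusted p = 0.0695), although its difference of -2.14 hardly moved, and Lif was called in both.

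Il2, the T cell growth factor, was at 10.66, 10.53 and 10.91 in wild type and 9.64, 10.27 and 9.59 in null cells, with no overlap; its difference of -0.87 (SE 0.19) missed the threshold, at an adjusted p of 0.0502 that ranged from 0.0128 to 0.268 over the alternatives. Ifng, which encodes interferon gamma, was at 10.26, 9.60 and 10.02 and 7.87, 9.53 and 7.04 (difference -1.81, SE 0.48, adjusted p = 0.104, range 0.00514 to 0.492). Null replicate 2 lay just under the wild-type arrays and the other null arrays far below them; without that array both genes passed the test. The change of Il2 with peptide was 6.82 in wild-type and 5.79 in null cells, and that of Ifng 5.45 and 3.31. Tnf, another early effector cytokine, was at 10.96, 10.90 and 10.64 in wild type and 11.11, 10.75 and 11.18 in null cells, and Csf2, which encodes GM-CSF, at 7.09, 6.54 and 6.86 and 6.22, 7.28 and 6.75; their differences of 0.18 and -0.081 were within the spread between mice (adjusted p = 0.711 and 0.915).

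Chemokines draw other leukocytes to activated cells. All 12 measured were below wild type and 2 were called (median -0.307). Ccl3, an inflammatory chemokine of the CC class, was at 13.00, 12.57 and 12.54 in wild-type and 10.84, 11.28 and 10.58 in null cells, a 3.49-fold lower level (difference -1.80, SE 0.30, adjusted p = 0.0182), while without peptide it differed by 0.14. Its rise with peptide was 7.14 in wild-type and 5.20 in null cells. Ccl9, a related chemokine, was at 7.35, 7.00 and 7.62 and 5.93, 6.27 and 5.59 (2.63-fold lower, adjusted p = 0.0277) and showed a rise of 1.82 in wild-type and 0.039 in null cells. Ccl4, the usual partner of Ccl3, was at 13.84, 13.55 and 13.60 and 12.70, 12.78 and 12.67, apart but not called (difference -0.95, adjusted p = 0.0851). Ccl5 was at 10.72, 10.65 and 10.23 and 10.30, 11.06 and 10.20 (adjusted p = 0.99).

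On the list of TNF family ligands and receptors 2 of 17 genes were lower and none higher. Tnfrsf19, a receptor of the family that was not on this list, was called higher and is described below. Tnfsf11 encodes RANKL, a membrane ligand that activated T cells present to dendritic cells and osteoclast precursors. It was at 10.80, 10.80 and 11.33 in wild type and 8.78, 9.09 and 9.23 in null cells (3.84-fold lower, SE of the log2 difference 0.29, adjusted p = 0.0106), and its second probe set was called in the same direction. Tnfrsf21, which encodes death receptor 6, was at 6.89, 7.04 and 7.12 and 5.92, 5.52 and 5.82 (difference -1.26, SE 0.12, adjusted p = 0.00111), with the spread in either group a small part of the gap. Costimulatory receptors gave no call among 18 (adjusted p of limma; 2 higher and 4 lower at an unadjusted p under 0.05): the early activation marker Cd69 was at 12.90, 12.85 and 12.72 and 12.94, 12.83 and 12.81. Il2ra, the high-affinity subunit of the interleukin 2 receptor, was lower, at 10.15, 10.12 and 10.32 in wild type and 9.73, 9.53 and 9.44 in null cells (difference -0.63, SE 0.13, adjusted p = 0.0379), 1 of 18 cytokine receptor genes called; the call was lost without null replicate 2, where the difference was -0.61.

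**Figure D3:**
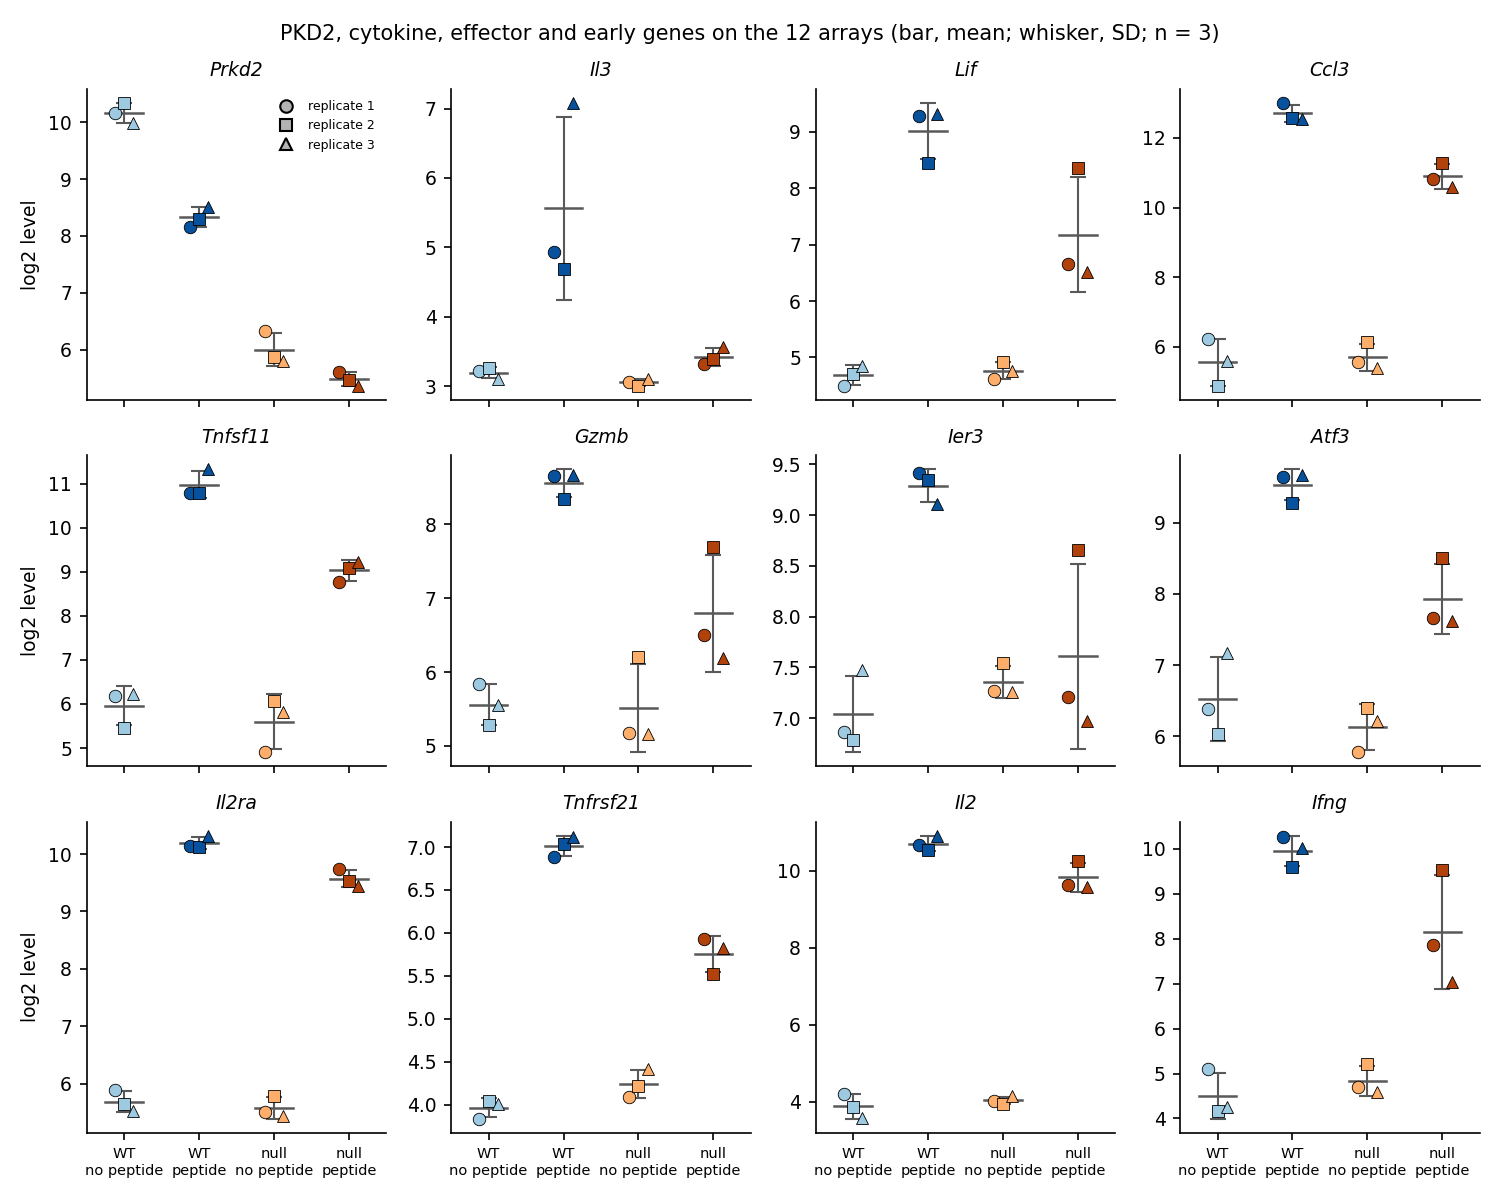
Log2 level of 12 genes on the 12 arrays by genotype and culture, with the group mean as a bar, the SD as whiskers and the replicate number as the symbol. With peptide, the null arrays lay below all wild-type arrays in each panel; in Lif, Gzmb, Ier3 and Ifng null replicate 2 was close to wild type.

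Immediate early transcription factors are switched on within minutes to hours of receptor engagement. Of 23 measured, 3 were lower and none higher, with a median of -0.202. Atf3, a stress-induced partner of AP-1 proteins, was at 9.64, 9.28 and 9.68 in wild-type and 7.67, 8.50 and 7.62 in null cells (3.04-fold lower, SE of the log2 difference 0.29, adjusted p = 0.0268). Ier3, an early survival and stress gene, was at 9.41, 9.35 and 9.11 and 7.21, 8.65 and 6.97 (3.2-fold lower, adjusted p = 0.0392), and null replicate 2 again lay nearest to wild type. Fosl1, which encodes the AP-1 subunit FRA-1, was at 8.24, 8.27 and 8.59 and 7.60, 7.88 and 7.06 (adjusted p = 0.0464). Jun did not pass the test, but its null replicate 2 was level with wild type and the others were lower: it was at 9.96, 9.89 and 10.08 in wild type and 8.42, 9.95 and 8.01 in null cells (adjusted p = 0.155). The classical markers of receptor signalling gave no call: Nr4a1 was at 13.63, 13.38 and 13.38 and 13.49, 13.31 and 13.54, Egr2 at 11.73, 11.37 and 11.44 and 11.94, 11.29 and 11.73, and Myc at 12.98, 12.61 and 12.76 and 12.54, 12.57 and 12.54 (adjusted p = 0.99, 0.783 and 0.684).

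Feedback regulators are induced by the signals they limit. Spry2, a Sprouty inhibitor of receptor signalling to ERK, was at 6.34, 6.31 and 6.79 in wild type and 4.80, 5.49 and 5.68 in null cells (difference -1.16, SE 0.25, adjusted p = 0.0487), the 1 call among 24 such genes and one that ended without null replicate 2 (-1.24, adjusted p = 0.0591). Socs1, an inhibitor of cytokine signalling, was at 9.39, 9.46 and 9.35 and 8.45, 9.23 and 7.95 (adjusted p = 0.11). Cdkn1a, which encodes the cell cycle inhibitor p21, was lower at 10.24, 10.05 and 10.31 against 9.14, 9.41 and 9.25 (difference -0.93, adjusted p = 0.0193), 1 call among 27 cell cycle genes. F3, which encodes tissue factor, was at 4.90, 6.04 and 5.94 in wild type and 3.74, 3.44 and 3.33 in null cells (4.37-fold lower, adjusted p = 0.00346); its rise with peptide was 1.92 in wild-type and 0.084 in null cells.

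Cytotoxic granule genes serve the killing function of CD8 T cells. Of 13 measured, 3 were lower and none higher. Gzmb, the main granzyme of effector cells, was at 8.65, 8.34 and 8.67 in wild type and 6.50, 7.69 and 6.19 in null cells (3.39-fold lower, SE of the log2 difference 0.35, adjusted p = 0.0379). Gzmc, a neighbouring granzyme gene, was at 5.28, 5.39 and 5.59 and 4.44, 4.13 and 3.86 (2.42-fold lower, adjusted p = 0.0249), with wild-type arrays little above the array median and null arrays below it, and was not called with the B cell level as a covariate (-1.10 in place of -1.27). Rab27a, a small GTPase that docks granules at the membrane, was at 8.20, 7.98 and 8.28 and 7.07, 7.10 and 7.05, with little spread in the null group (difference -1.08, SE 0.10, adjusted p = 0.000951); without peptide it differed by -0.53 (adjusted p = 0.0892). Prf1 and Gzma were not lower, with differences of 0.30 and 0.17. Klrd1, which encodes the receptor CD94 of NK and CD8 T cells, was at 10.78, 10.87 and 10.54 and 9.89, 9.95 and 9.57 (difference -0.92, adjusted p = 0.0271); it was also apart without peptide, where it was not called (adjusted p = 0.0631). It was the 1 call among 6 measured markers of NK and gamma-delta T cells, of which 4 were below wild type and 3 were lower at an unadjusted p under 0.05 (median -0.379). Their mean level was 6.30, 6.44 and 6.33 in wild type and 6.01, 6.34 and 5.80 in null cells, with an overlap, and their part in the granule gene differences was not tested.

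Some of the lower genes carried AP-1 or CRE letters just before their start. The 250 bases before the start were searched on both strands in RefSeq promoter windows of the build GRCm38.p6, which exist for 79 of the 99 lower genes, 159 of the 199 higher genes and 14452 of all 18193. The AP-1 letters TGACTCA or TGAGTCA were found for 9 (11.4%) of the lower genes, 4 (2.52%) of the higher genes and 684 (4.73%) of all genes; of all 32851 windows 4.46% held them. The CRE letters TGACGTCA were found for 5 (6.33%) of the lower, 1 (0.629%) of the higher and 361 (2.5%) of all genes, and in 1.55% of all windows. Letters of an NFAT core (GGAAAA or TTTTCC) were found for 24.1% of the lower and 17.6% of the higher genes beside 21.8% of all genes and 20.4% of all windows. Letters of an EGR site (GCGGGGGCG, GCGTGGGCG and their complements CGCCCCCGC and CGCCCACGC) were found for 5.06%, 10.1% and 5.58% of the lower, higher and all genes and in 3.06% of windows. For a GAS site (TTCNNNGAA) the shares were 5.06%, 5.66% and 7.42%, with 7.02% of windows. For a loose NF-kappaB site (GGGA or GGGG, any 4 bases, then CC, on either strand) they were 49.4%, 50.3% and 38.9%, with 28.4% of windows. The motifs were chosen with these results known, and a match is a description of letters, not of binding. The windows of 4 called genes are shown because they are among the named lower genes that hold these letters, with the motif in capitals, 5′ to 3′ on the gene's strand and ending at the base before the start. None of the matches overlapped another motif that was searched. Gzmb is from chr14:56262335-56262434 (minus strand), F3 from chr3:121723387-121723536 (plus), Xaf1, an interferon-inducible gene described next, from chr11:72301529-72301628 (plus) and Gzmc from chr14:56234658-56234757 (minus).
Gzmb: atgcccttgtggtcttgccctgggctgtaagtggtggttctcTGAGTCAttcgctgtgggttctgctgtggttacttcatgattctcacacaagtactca
F3: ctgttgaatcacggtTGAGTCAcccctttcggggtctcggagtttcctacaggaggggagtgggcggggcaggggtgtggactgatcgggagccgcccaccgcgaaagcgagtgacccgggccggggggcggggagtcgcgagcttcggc
Xaf1: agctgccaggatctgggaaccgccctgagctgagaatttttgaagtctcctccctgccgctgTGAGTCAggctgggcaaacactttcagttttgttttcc
Gzmc: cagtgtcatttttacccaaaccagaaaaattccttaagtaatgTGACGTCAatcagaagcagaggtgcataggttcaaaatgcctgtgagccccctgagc

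The interferon-inducible GTPases, guanylate-binding proteins and immunity-related GTPases that defend cells against intracellular microbes and are induced by interferon gamma, were below wild type together without a call. All 10 measured were below wild type, none passed the adjusted threshold, and 10 had an unadjusted p under 0.05 in limma; the median was -1.12. Their mean level was 11.18, 11.07 and 11.28 in stimulated wild-type replicates 1 to 3 and 9.92, 10.67 and 9.19 in null replicates 1 to 3 (exact two-sided permutation p = 0.1, the smallest possible). Null replicate 3 was lowest and null replicate 2 closest to wild type. Iigp1 was at 10.56, 10.03 and 9.46 and 7.04, 8.71 and 6.22 (difference -2.69, SE 0.66, adjusted p = 0.0799), and Gbp2 at 12.47, 12.41 and 12.85 and 11.20, 12.02 and 10.15 (adjusted p = 0.1). The null arrays had the same order, with replicate 2 highest and replicate 3 lowest, for Ifng and for 26 of all 42 lists, among them the B cell and salivary gland markers. Without null replicate 2, 7 of the 10 were called lower, and with the B cell level as a covariate 8 were; with the salivary level none was. Cxcl10, a chemokine also induced by interferon gamma, was at 11.54, 11.42 and 11.63 and 9.81, 11.23 and 8.86 (adjusted p = 0.178).

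Of the 7 GTPase genes with a RefSeq window, 6 held the letters of an interferon-stimulated response element (ISRE; GAAA, any 2 bases, GAAA, or the complement TTTC, any 2 bases, TTTC) in the 250 bases before the start (85.7%, beside 3.13% of all genes and 2.98% of all windows). The list was made of genes known as interferon-inducible, so this share describes the list and is no test of the genotype difference. Among the called genes 2 (2.53%) of the lower and 3 (1.89%) of the higher genes held ISRE letters. GAS letters were found for 3 (42.9%) of the 7 GTPase genes, beside 7.42% of all genes and 7.02% of all windows. AP-1 and NFAT letters were found for 2 (28.6%) each, and CRE, EGR and NF-kappaB letters for 0. The 100 bases before the start of 5 of the 6 GTPase genes with ISRE letters are printed because these genes lay below wild type together. The ISRE letters are in capitals, and in Gbp3 and Irgm1 a pair of matches overlap each other. The windows are chr3:142620563-142620662 (Gbp2, plus), chr3:142559944-142560043 (Gbp3, plus), chr3:142530236-142530335 (Gbp7, plus), chr11:58199456-58199555 (Igtp, plus) and chr11:48871421-48871520 (Irgm1, minus), from the same build.
Gbp2: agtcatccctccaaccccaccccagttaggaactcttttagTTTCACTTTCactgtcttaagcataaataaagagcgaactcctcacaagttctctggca
Gbp3: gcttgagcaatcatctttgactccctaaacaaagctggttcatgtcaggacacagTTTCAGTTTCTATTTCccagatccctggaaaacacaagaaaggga
Gbp7: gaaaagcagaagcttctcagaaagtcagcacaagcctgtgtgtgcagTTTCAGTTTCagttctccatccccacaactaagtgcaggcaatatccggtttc
Igtp: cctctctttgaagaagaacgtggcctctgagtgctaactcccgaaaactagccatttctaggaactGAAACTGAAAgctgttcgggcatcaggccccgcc
Irgm1: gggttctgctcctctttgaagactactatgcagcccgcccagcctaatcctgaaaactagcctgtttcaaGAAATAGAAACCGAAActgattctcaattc

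Genes of the type I interferon response overlap with this group. Of 22 measured, 19 were below wild type and 2 were called, with a median of -0.454. Oasl2, an antiviral protein of the oligoadenylate synthetase family, was at 5.59, 4.86 and 5.89 in wild type and 3.53, 4.06 and 3.55 in null cells (3.32-fold lower, adjusted p = 0.011). Xaf1, a pro-apoptotic interferon-induced protein, was at 8.57, 8.21 and 8.76 and 6.89, 7.38 and 6.93 (2.73-fold lower, adjusted p = 0.00237). A second Xaf1 probe set went the other way in part of the null group, at 3.47, 3.69 and 3.73 in wild type and 6.75, 7.15 and 3.50 in null cells, so the 2 probe sets disagree.

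Genes higher in null cells were led by a few that were low or moderate in wild type. Ccnb1ip1, a ubiquitin ligase known from meiotic recombination, was at 3.76, 3.53 and 3.79 in wild type, below the array median, and 6.30, 6.03 and 6.09 in null cells (5.44-fold higher, SE of the log2 difference 0.17, adjusted p = 4.25e-05). Tnfrsf19, a TNF receptor family member also called TROY, was at 4.45, 4.25 and 4.27 and 6.03, 5.57 and 6.22 (3.07-fold higher, adjusted p = 0.0012). Neither was called without peptide, where the differences were 0.63 and -0.06. Their changes with peptide were 1.67 and 1.90 in null cells, against -0.15 and 0.22 in wild-type cells. Pgap1, an enzyme of GPI anchor maturation, was at 4.79, 4.95 and 5.00 and 6.49, 6.33 and 6.42 (adjusted p = 0.000126), although its second, dimmer probe set was slightly lower in null cells (-0.13). Celsr1, an atypical cadherin of planar cell polarity, was at 5.03, 4.95 and 5.00 and 6.57, 5.97 and 6.51 (adjusted p = 0.00547), and Inpp4b, a phosphatase that removes the PI3 kinase product PI(3,4)P2, at 6.13, 5.79 and 6.27 and 7.63, 7.07 and 7.88 (adjusted p = 0.0407).

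The rest of the 15 largest increases ranged from 1.24 for Ephx1, an epoxide hydrolase, to 1.53 for Marchf1. They held Rpl39l, a paralogue of a ribosomal protein gene (1.41), Rell1, a relative of the TNF receptor RELT (1.29), and the clone gene E330020D12Rik (1.29). Of the 59 genes followed by name, 4 were called in each fit they could enter: Prkd2, Ccnb1ip1, Pgap1 and E330020D12Rik.

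Several of the largest increases were genes of B cells or antigen presentation, which stood beside the higher B cell markers given above. Ighm, the immunoglobulin mu heavy chain, was at 11.26, 11.02 and 10.87 in wild type and 12.10, 13.20 and 12.20 in null cells (2.74-fold higher, adjusted p = 0.0308), with null replicate 2 highest; 7 of its 10 further probe sets were also higher. Cd79b, the B cell receptor chain Ig-beta, was at 9.97, 10.62 and 10.27 and 11.36, 11.77 and 11.31 (adjusted p = 0.0139), and Fcrla, an Fc receptor-like protein of B cells, at 7.05, 7.77 and 7.47 and 8.56, 9.00 and 8.49 (adjusted p = 0.0139). Marchf1, a ubiquitin ligase that clears MHC class II from the surface, was at 4.18, 5.02 and 5.04 and 6.23, 6.49 and 6.12 (adjusted p = 0.00633), and Cnr2, the cannabinoid receptor of B cells and other leukocytes, at 4.85, 4.80 and 4.69 and 6.65, 6.16 and 6.10 (adjusted p = 0.00136). Hhex, a homeobox factor, was at 6.36, 6.85 and 6.90 and 8.11, 8.51 and 7.79, and Sdc1, the plasma cell marker CD138, at 4.58, 5.47 and 4.79 and 6.06, 6.38 and 6.19 (adjusted p = 0.011 and 0.0113). Sdc1 was the 1 call among 8 measured plasma cell markers, of which 5 were above and 3 below wild type (median 0.0598). Of its 3 further probe sets 1 was called in the same direction, and the others differed by only 0.17 and 0.046.

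All 7 measured MHC class II genes were above wild type and 2 were called, H2-DMa (0.95) and H2-Ob (0.74), which encode chains of the peptide-loading helpers DM and DO. Without peptide the B cell and antigen presentation genes called with peptide and named here differed in the same direction and by less, with no call. The median of the MHC class II list was 0.513 without peptide and 0.478 with it. The differences there were 1.01 for Fcrla, 1.05 for Sdc1, 1.15 for Marchf1 and 1.01 for Ighm, beside 1.25, 1.26, 1.53 and 1.45 with peptide. They were 0.66 for Cd79b, 0.66 for Hhex and 0.46 for Cnr2, beside 1.19, 1.44 and 1.52, and 0.64 and 0.59 for H2-DMa and H2-Ob. With the B cell level as a covariate Ighm, Cd79b, Fcrla, Ralgps2, H2-DMa, H2-Ob and Sdc1 were no longer called (Ighm 0.60, Cd79b 0.67, Fcrla 0.74, Sdc1 0.92). Marchf1, Cnr2 and Hhex were still called (1.14, 1.67 and 0.80). Ighm, Cd79b, Fcrla and Ralgps2 are members of the list whose mean is that covariate, so their differences shrink in part by construction. Their contrast with Marchf1, Cnr2 and Hhex was therefore not a test of composition.

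**Figure D4:**
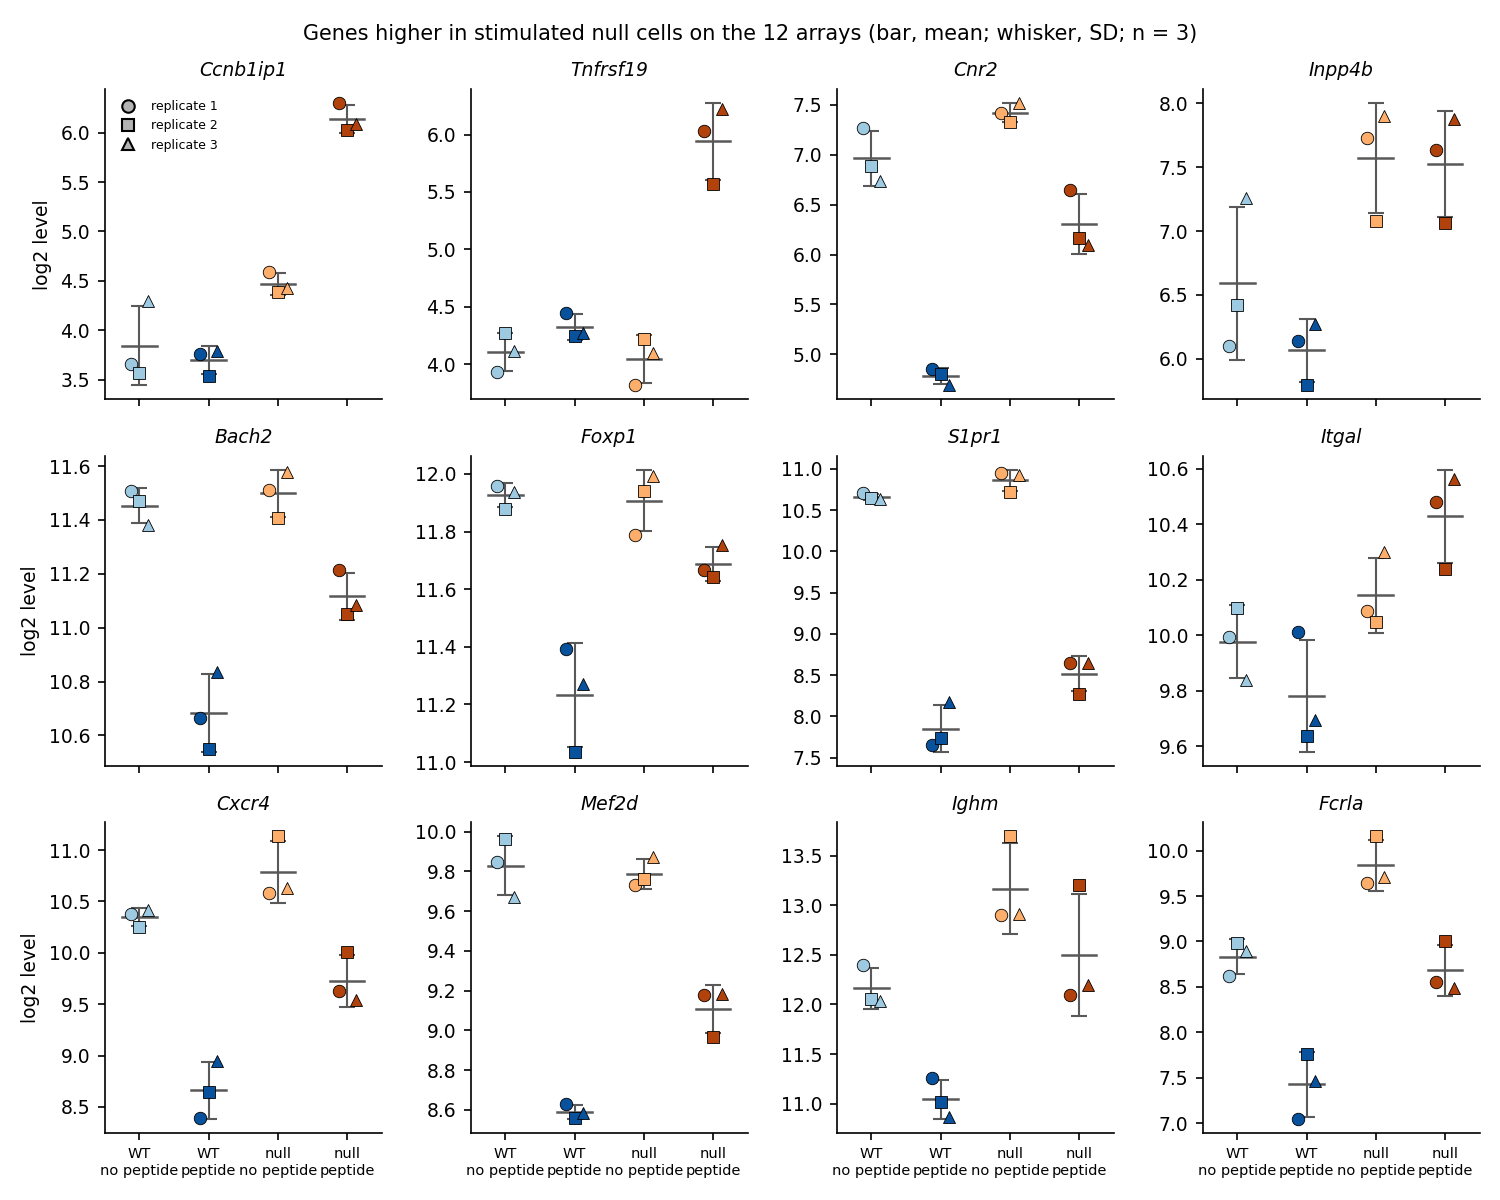
Log2 level of 12 genes higher in stimulated null cells on the 12 arrays by genotype and culture, with the group mean as a bar, the SD as whiskers and the replicate number as the symbol. Ccnb1ip1 and Tnfrsf19 stood apart with peptide, whereas Ighm and Fcrla were higher in null cells in both cultures.

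Genes of naive and quiescent T cells fall when antigen arrives. Of 20 measured, 3 were higher in null cells and none lower, with a median of 0.199; the median average response was -1.84. Bach2, a repressor of effector genes, was at 10.67, 10.55 and 10.84 in wild type and 11.21, 11.05 and 11.08 in null cells (difference 0.43, SE 0.093, adjusted p = 0.0478). Its 2 further probe sets, 1 of them about as bright, differed by only 0.014 and 0.088 without a call, so the Bach2 difference rests on the probe set. Foxp1, a factor of T cell quiescence, was at 11.39, 11.04 and 11.27 and 11.67, 11.64 and 11.75 (adjusted p = 0.0478), with all 7 of its further probe sets higher and 3 called. S1pr1, the receptor for egress from lymph nodes, was at 7.65, 7.73 and 8.18 and 8.64, 8.27 and 8.64 (adjusted p = 0.0463). These 3 differences were small, and those of Bach2 and Foxp1 were not called without null replicate 2 (0.47 and 0.48, adjusted p = 0.06 and 0.0677). Klf2, which maintains naive cell traffic, was at 10.06, 10.32 and 10.57 and 10.71, 10.24 and 10.65 (adjusted p = 0.628). Bcl6, a repressor that B cells and follicular T cells also express, was at 8.35, 8.61 and 8.63 and 9.54, 9.28 and 9.62 (difference 0.95, SE 0.14, adjusted p = 0.00984). Unlike the naive cell genes it rose with peptide, by 0.41 in wild-type and 1.04 in null cells. It was the 1 call among 18 effector transcription factors, of which 7 were above and 11 below wild type (median -0.088).

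Integrins and homing receptors gave 3 higher genes of 16 and a median of 0.376. Itgal and Itgb2 encode the 2 chains of LFA-1, through which T cells hold on to antigen-presenting cells. Itgal was at 10.01, 9.64 and 9.70 in wild type and 10.48, 10.24 and 10.56 in null cells (adjusted p = 0.0334), and Itgb2 at 11.59, 11.51 and 11.38 and 12.10, 11.79 and 12.12 (adjusted p = 0.0349). Both are expressed by B cells too, and both were called with the B cell level as a covariate. Cxcr4, the receptor for CXCL12, was at 8.39, 8.65 and 8.95 and 9.63, 10.01 and 9.54 (2.09-fold higher, adjusted p = 0.0164), and lost its call with that covariate (0.62 in place of 1.06).

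The lists of diacylglycerol signalling, of NFAT and calcium entry, and of class IIa deacetylases and MEF2 gave 4 calls. Each was higher in null cells by the probe set used for the gene. Of 13 diacylglycerol signalling genes 10 were above wild type and 1 was called: Prkcb, a protein kinase C of B cells and T cells, was at 8.73, 8.78 and 8.78 in wild type and 9.36, 9.59 and 9.22 in null cells (difference 0.63, adjusted p = 0.0149), a call lost with the B cell covariate (0.39). Of 15 genes of NFAT and calcium entry 2 were higher. Nfatc3 was at 9.18, 9.19 and 9.27 and 9.83, 9.90 and 9.78 (difference 0.62, SE 0.093, adjusted p = 0.011). Nfatc2 was called by 1 probe set (0.57, adjusted p = 0.0296) while its 5 other probe sets were on the other side of 0, so its direction rests on the probe set. Protein kinase D phosphorylates class IIa histone deacetylases, which hold MEF2 factors in check. Of 8 genes of these 2 families 1 was higher, Mef2d, at 8.63, 8.56 and 8.58 and 9.18, 8.97 and 9.18 (difference 0.52, SE 0.095, adjusted p = 0.0269). The 2 other Mef2d probe sets were not called and lay on either side of 0 (-0.22 and 0.17). The T cell receptor and its proximal kinases gave no call among 19 genes (limma; 4 higher and 2 lower at an unadjusted p under 0.05).

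Genes of growth and metabolism gave few calls. Ribosome biogenesis (27 genes), glycolysis (16), cholesterol synthesis (15), heat shock proteins (13) and the BCL2 family (12) held no call in limma. Several lay mostly on one side of 0: all 13 heat shock genes were below wild type (median -0.139, 6 lower and 0 higher at an unadjusted p under 0.05), as were 22 of the ribosome biogenesis genes (2 and 0), while 14 of the cholesterol genes were above (median 0.272, 7 higher and 0 lower). For glycolysis 4 genes were lower and 1 higher at that level, and for the BCL2 family 1 and 2. Of all 45037 probe sets 15.6% had an unadjusted p under 0.05 in either direction, and the median over all genes was -0.0266. The ATF4 list of 19 had 2 higher genes: Ddit3, which encodes the stress factor CHOP, was at 7.91, 8.22 and 8.04 in wild type and 8.70, 8.44 and 8.62 in null cells (adjusted p = 0.0319), and Ddit4, an inhibitor of mTORC1, at 7.22, 7.28 and 7.69 and 8.25, 8.10 and 8.25 (adjusted p = 0.0263); with the B cell covariate Ddit4 differed by 0.74 in place of 0.80 and was not called (adjusted p = 0.0712).

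**Figure D5:**
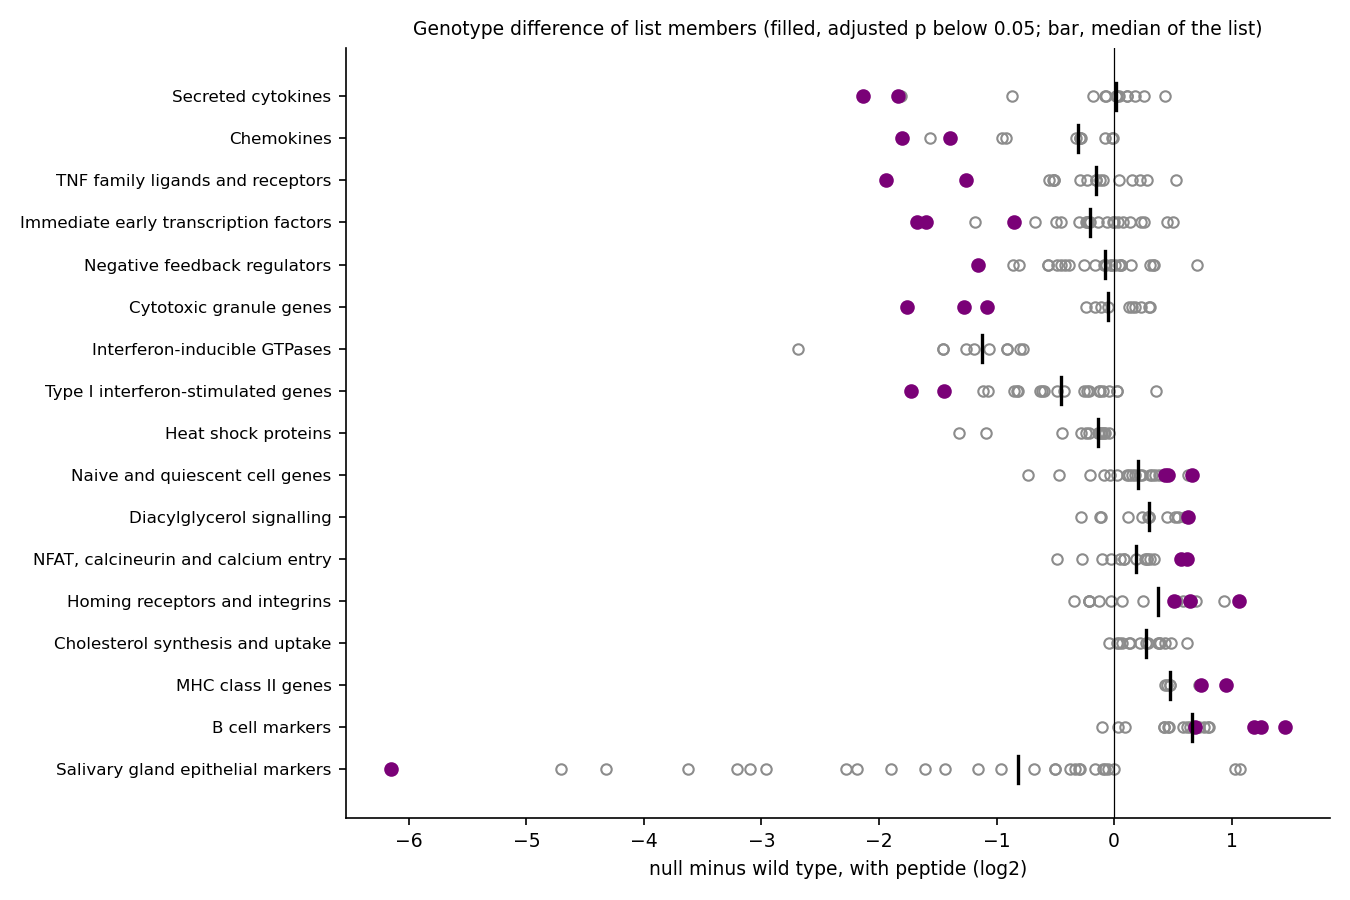
Null minus wild type with peptide (log2) for each measured member of 17 gene lists; filled points have an adjusted p under 0.05 and the bar is the list's median. All 10 interferon-inducible GTPases lie left of 0 without a filled point, and 19 of 20 B cell markers lie right of 0.

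Whether a difference seen with peptide was other than that without peptide was tested as an interaction, in which each gene's genotype difference without peptide was subtracted from that with peptide. Over 45037 probe sets 1 passed (0.00222%), Tnfrsf21, with an interaction of -1.53 (SE 0.17, adjusted p = 0.05); 3209 had an unadjusted p under 0.05. The change of Tnfrsf21 with peptide was 3.05 in wild-type and 1.52 in null cells. Each mouse gave both arrays, and with the mouse as a fixed block 43 probe sets passed, 9 with a difference shifted upward and 34 downward, of which 20 were also called in the comparison with peptide. In that fit Ccl3 passed (-1.94, adjusted p = 0.0344), as did Gzmb (-1.71, 0.0157), Gzmc (-1.88, 0.0344) and Ccl9 (-1.78, 0.0344), all with a smaller rise or none in null cells. Tnfrsf21 passed there too (adjusted p = 0.0327). Among the higher genes Ccnb1ip1 (1.82, adjusted p = 0.0157), Tnfrsf19 (1.68, 0.0491) and Celsr1 (1.12, 0.0429) passed. Lif, Il3, Ier3, Ifng and Il2 did not, with interactions of -1.92, -2.00, -1.99, -2.14 and -1.03 and adjusted p of 0.164, 0.242, 0.117, 0.117 and 0.237. For 4 B cell markers the interaction did not pass in that fit: it was 0.45 for Ighm, 0.25 for Fcrla, 0.54 for Cd79b and 0.47 for Ralgps2, beside differences with peptide of 1.45, 1.25, 1.19 and 0.69 (adjusted p = 0.257, 0.54, 0.225 and 0.306). Hhex (0.78) and Cnr2 (1.07) did not pass either (adjusted p = 0.136 and 0.1).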

How the data were processed

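RNA of lymph node cells from 6 mice, 3 of each genotype, each cultured with and without peptide, was measured on 12 Affymetrix arrays. The deposited values are log2 signals, with a range of 2.427 to 15.07 and array distributions that were similar but not equal (sorted values differed by up to 0.253); the authors used Affymetrix Expression Console 1.1, per the submitters' processing notes, and the summary method, background correction and annotation build are not given in the sources used here. No array duplicated another. Of 45037 non-control probe sets, 34945 had 1 gene symbol in GEO's platform annotation, 932 had several and 9160 none; the last 2 kinds were tested but not named.

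A model of 4 group means was fitted over 12 arrays with limma 3.58.1 in R 4.3.3 (moderated test, two-sided, Benjamini-Hochberg over all probe sets), after a test on simulated data. The genes named are the 15 largest called differences in each direction, up to 4 called members of each of 42 gene lists, Il2, Ifng and the PKD genes, plus list members and array checks given for context. Members and lists were chosen with earlier results of these data known, and marker levels were used as covariates for composition. The labels give the unstimulated and stimulated array of a number to the same mouse, so the interaction was also fitted with the mouse as a block; across genotypes numbers name different mice (deviation correlations 0.251, 0.119 and -0.174). Alternatives were other normalizations, a filter on low values, other moderation, blocks, covariates and leaving out each array.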

Additional observations from a re-analysis of the deposited data

Results flagged for a closer look

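Tnfrsf21, which encodes death receptor 6, was the 1 gene whose genotype difference was other with peptide than without by a test of that difference in the fit without a block; with the mouse as a fixed block, 43 probe sets passed. Its interaction was -1.534 (limma, adjusted p = 0.05 to 2 digits, under the threshold): the difference was -1.26 with peptide and 0.28 without. The probe set may bind more than 1 transcript form, and a second Tnfrsf21 probe set had the same sign without a call.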

How the results depend on the processing

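The 360 higher and 171 lower probe sets kept their sign in every fit in which they were tested, and no call reversed. For the called genes, whose groups were apart, fewer arrays or a replicate block could not have changed the sign. The counts depended on the setting. Fitted on the 6 stimulated arrays, 63 were higher and 28 lower. With the replicate number of the labels as a replicate block, which joins different mice, 338 were higher and 62 lower. With the B cell level as a covariate the counts were 1321 and 586, with the salivary level 42 and 15, and with both (chosen after the data were seen) 58 and 41. Leaving out 1 stimulated array gave 53 to 479 higher and 22 to 239 lower; the counts were lowest without null replicate 1 and highest without wild-type replicate 1. A mouse as a random block (394 and 181), quantile normalization (262 and 199), median centring (364 and 146), a mean of at least 5 (497 and 176) and robust moderation with a trend (462 and 182) stayed within 1.5 times.

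The interaction gave 9 probe sets with the mouse as a random block, 43 with it as a fixed replicate block, and 0 (2109 at an unadjusted p under 0.05, limma) when probe sets with a mean under 5 were left out. Leaving out 1 mouse gave 0 to 11: 11 without null replicate 2 and 0 without any of the other 5, with 2196 to 3262 at an unadjusted p under 0.05. The difference of the B cell level ranged from 0.427 to 0.756 and that of the salivary level from -1.94 to -1.17 when 1 array was left out.

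When all probe sets of a gene were averaged, Nfatc2 (-0.0349) and Xaf1 (0.361) reversed, since their probe sets disagree. No other named difference reversed. Between 8 and 40 of 57 called named genes lost their call when 1 array was left out. With 3 mice a group and signals below the array median for Il3, F3, Gzmc and Ccnb1ip1 in 1 of the groups, small differences were not measurable.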
